A study of Ambystoma mexicanum with 12 samples.

Results

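A set of 60 axolotl genes was higher in proximal than in distal forelimb blastemas and higher in distal blastemas after 1 uM talarozole, but not after 0.1 uM talarozole, and was chosen by these levels. The members were selected on estimated counts scaled to the library total as CPM, taken as log2(CPM + 0.5). A gene entered where its group mean on that scale exceeded that of DMSO distal blastemas by at least 1 both in DMSO proximal blastemas and at 1 uM talarozole, and was less than 0.5 away from DMSO distal at 0.1 uM. These thresholds were met by 79 of the 21835 genes with AMEX60DD identifiers that had at least 10 counts in at least 3 libraries. The 60 with the largest gap were kept, where the gap is the lowest value in any library of the DMSO proximal and 1 uM groups minus the highest value in any library of the DMSO distal and 0.1 uM groups. All 60 members thus passed the filter on low counts, and the differences named in the thresholds and in the gap are the choice itself and are given below as descriptions.

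When a salamander limb is cut off, a bud of dividing cells called the blastema grows at the cut and replaces the missing segments. Retinoic acid, a signal made from vitamin A, acts through nuclear receptors that bind DNA, and in salamander limbs an excess of it makes distal blastemas regrow more proximal structures. Enzymes of the CYP26 family break retinoic acid down, and talarozole (TAL) inhibits them. The design text states that the study asked how excess endogenous retinoic acid affects patterning along the axis from shoulder to hand.

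The 4 groups held 3 libraries each, every library from a pool of 3 forelimb blastemas collected 14 days after amputation from white (d/d) axolotls 3 months old and 5 cm long. DMSO distal, 0.1 uM TAL distal and 1 uM TAL distal blastemas followed amputation through the carpals, and DMSO proximal blastemas followed amputation through the upper humerus. All animals received TAL or its solvent DMSO in the housing water from day 4, refreshed every other day for 7 days, and proximal blastemas with TAL are not analysed here. Since the labels do not say more about the origin of the pools, p-values measure the spread between these 12 libraries. In whole blastemas, fewer cells of a type and less RNA per cell cannot be told apart. The table does not pair its identifiers with gene names, and 0 of its 99081 identifiers matched the gene list at hand, so members are called by their rank on the gap, a few by identifier, and neither their functions nor the tissue markers could be read.

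Library totals ran from 8409618 to 13937318 counts. The 1 uM TAL libraries, with 11977855 to 13937318 counts, were all deeper than the other 9, which held 8409618 to 11122731. On the log2(CPM + 0.5) scale the median of all 21835 genes was 0.15 higher at 1 uM TAL than in DMSO distal blastemas and 0.20 higher than at 0.1 uM TAL. It differed by -0.01 between DMSO proximal and DMSO distal blastemas. One gene outside the set took between 0.321 and 5.83% of all counts, with the extremes in 1 uM TAL replicate 1 and DMSO distal replicate 1, and DMSO distal replicate 1 was the lowest library of its group for 63.8% of all genes. The part of depth and of these libraries in the results below was not tested except where values without them are given.

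The 60 members fell into 3 classes by their gap. In the 13 members ranked 1 to 13, every DMSO proximal and 1 uM TAL library lay above every DMSO distal and 0.1 uM TAL library, with gaps from 1.2 down to 0.0514. The 33 members ranked 14 to 46 had a gap of exactly 0, because they were at 0 in all 6 DMSO distal and 0.1 uM TAL libraries and at 0 in at least 1 of the other 6 as well. Equal gaps were ordered by identifier, so the ranks within 14 to 46 are names only and carry no order on the gap. The 14 members ranked 47 to 60 had gaps from -0.0231 to -1.31, so that at least 1 library of a low group reached above 1 of a high group. Full separation of the groups was seen in 65 of the 21835 genes, or 0.298%, and the 13 members among them were ranked on that very quantity. The opposite separation, with both high groups of the members below both low ones, was seen in 67 genes, or 0.307%, and in 0 members.

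**Figure D1:**
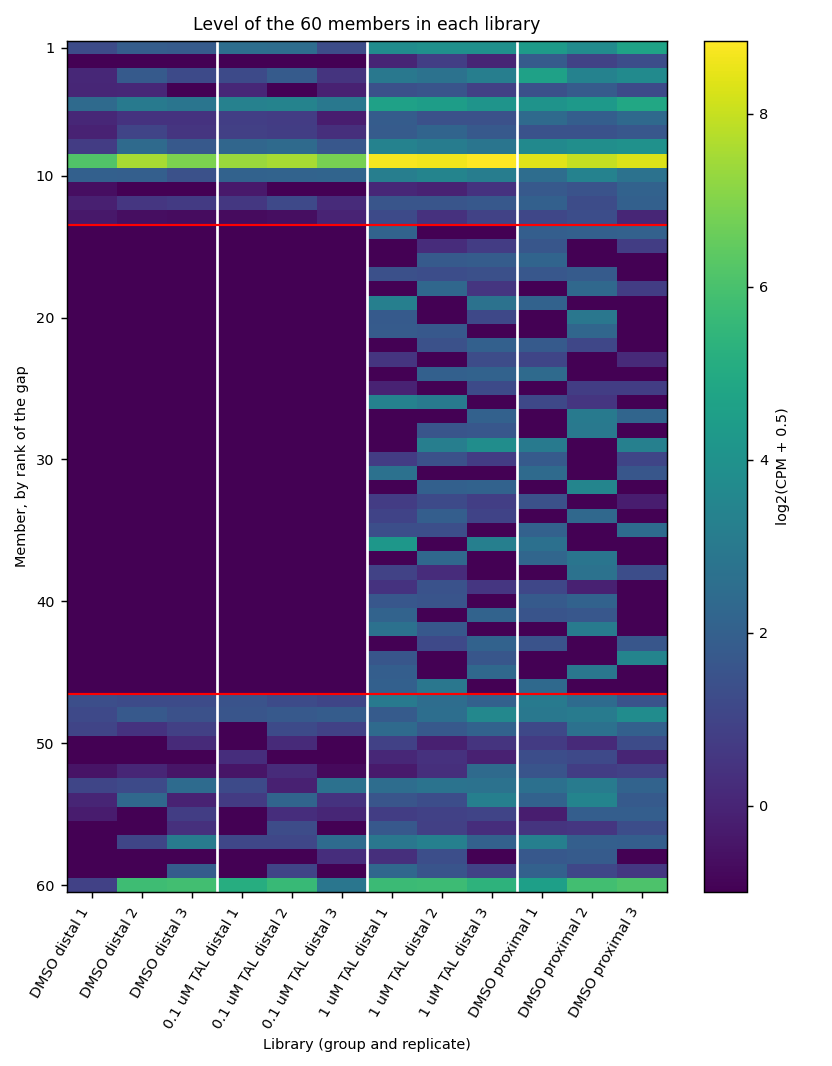
Level of each of the 60 members (rows, by rank on the gap) in each of the 12 libraries (columns), as log2(CPM + 0.5). Ranks 1 to 13 are higher in all 6 libraries of the 1 uM TAL and DMSO proximal groups, and ranks 14 to 46 are at 0 in all DMSO distal and 0.1 uM TAL libraries and patchy in the other 6.

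Most members were low. The mean over the 12 libraries was under 2 CPM in 44 of 60 members, or 73.3%, against 32.4% of all 21835 genes. It ran from 0.730 to 251 CPM with a median of 2.14 CPM in ranks 1 to 13, from 0.393 to 3.27 CPM in ranks 14 to 46, and from 0.570 to 41.4 CPM in ranks 47 to 60. Because the values are per gene and not per length, these levels do not order the genes by abundance of transcripts. The 60 members summed to 95.5, 285 and 220 CPM in the DMSO distal libraries and to 237, 286 and 157 CPM at 0.1 uM TAL. The sums were 671, 635 and 692 CPM at 1 uM TAL and 575, 533 and 582 CPM in DMSO proximal blastemas. The member ranked 9 made up the larger share of these sums in most libraries.

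The member with the largest gap, AMEX60DD001828, stood at 1.88, 3.26 and 3.07 CPM in DMSO distal blastemas and at 5.37, 5.25 and 1.92 CPM at 0.1 uM TAL. It stood at 13.2, 14.7 and 14.8 CPM at 1 uM TAL and at 19.8, 13 and 25.6 CPM in DMSO proximal blastemas. The lowest library of the high groups was therefore DMSO proximal replicate 2, and the highest of the low groups was 0.1 uM TAL replicate 1. Its fitted log2 fold change against DMSO distal was 2.36 (SE 0.38) at 1 uM TAL and 2.85 (SE 0.38) in DMSO proximal blastemas. The fitted log2 fold change at 0.1 uM TAL was 0.63 (SE 0.36). On the log2(CPM + 0.5) scale the member was 0.45 above DMSO distal at 0.1 uM TAL, which is near the limit of 0.5 that the selection set on that scale.

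AMEX60DD032141, ranked 2, was at 0 in all 6 DMSO distal and 0.1 uM TAL libraries. It had 0.509, 1.28 and 0.504 CPM at 1 uM TAL, from 7.1, 16.73 and 6.04 counts, and 3.04, 1.4 and 2.03 CPM in DMSO proximal blastemas, from 30, 11.99 and 17.07 counts. It was the 1 gene of 21835 that was at 0 in all 6 low libraries and above 0 in all 6 high ones, and 1 gene showed the opposite. Set against a floor of 3 counts per library, which averages 0.301 CPM in the DMSO distal libraries, its mean was at least 2.54-fold higher at 1 uM TAL and at least 7.16-fold higher in DMSO proximal blastemas. Here and below, the floor treats 1 estimated count as 1 read, which is not given. The folds called at least are bounds only if that holds. The floor covers only counting error in the DMSO distal libraries at 0. The means of the high groups are taken as observed, so a bound does not cover their own error.

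AMEX60DD015718, ranked 9, was the most highly counted member. It reached 71.6, 189 and 118 CPM in DMSO distal blastemas (126 ± 59.2, SD, n = 3) and 163, 188 and 112 CPM at 0.1 uM TAL (154 ± 38.9, SD, n = 3). It reached 415, 395 and 458 CPM at 1 uM TAL (423 ± 32.4, SD, n = 3) and 334, 249 and 322 CPM in DMSO proximal blastemas (301 ± 46.1, SD, n = 3). The 3 libraries at 1 uM TAL were thus all above the 3 of DMSO proximal blastemas, and the 0.1 uM TAL libraries lay within the range of DMSO distal ones. Its fitted log2 fold change against DMSO distal was 1.74 (SE 0.28) at 1 uM TAL and 1.30 (SE 0.28) in DMSO proximal blastemas.

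**Figure D2:**
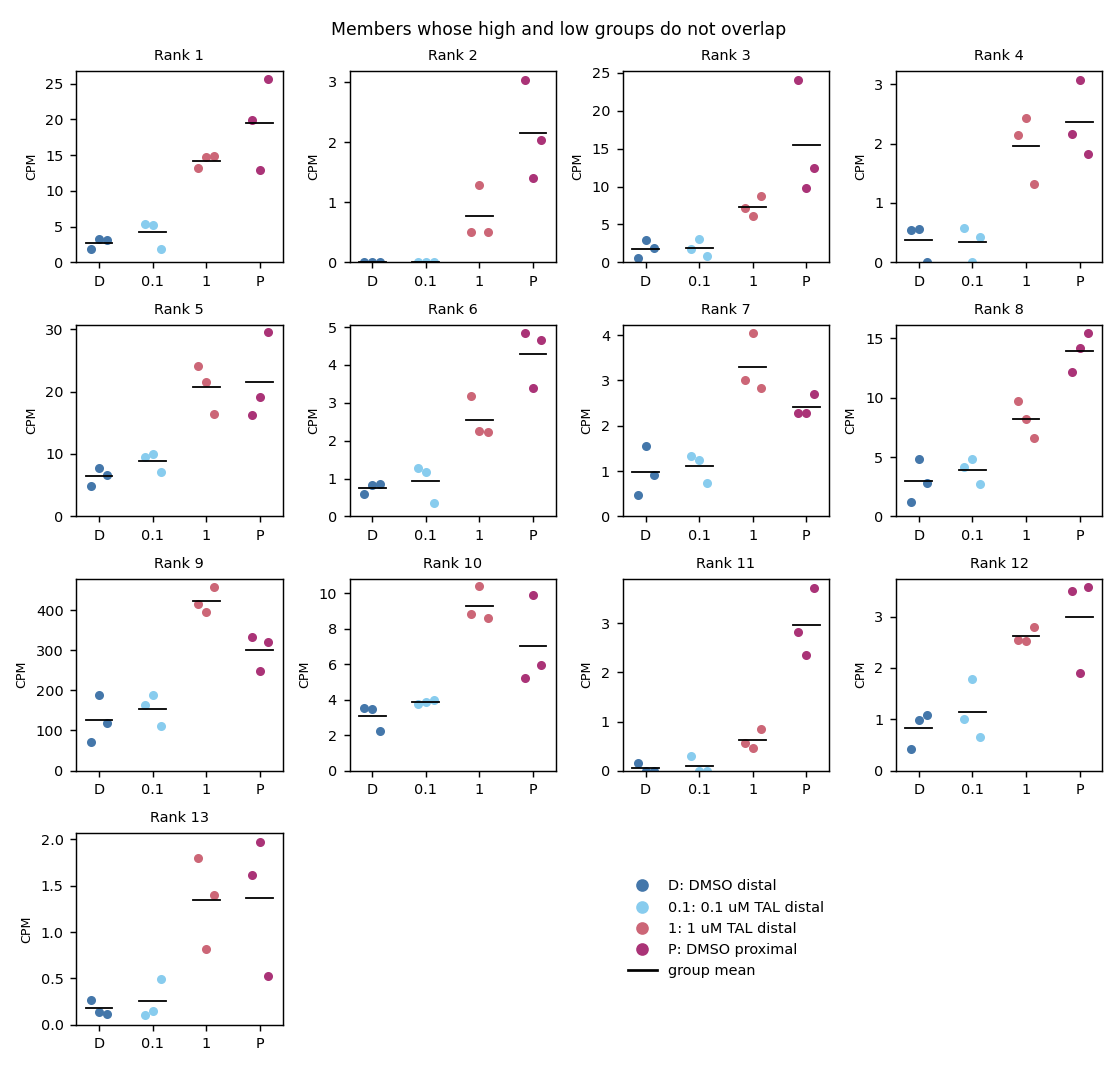
CPM of the 13 members ranked 1 to 13 in each library, 1 panel per member with its own linear axis from 0, with points for libraries by group (D for DMSO distal, 0.1 and 1 for uM TAL distal, P for DMSO proximal) and black lines for group means. In each panel the 6 points of the 1 uM TAL and DMSO proximal groups lie above the 6 points of the other groups.

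Of the 13 members with separated groups, 10 were above 0 in all 12 libraries. A partly different 10 of the 13 had a DMSO distal mean above the floor of 3 counts per library. In these, the ratio of mean CPM to DMSO distal ran from 2.77 to 5.35 with a median of 3.36 at 1 uM TAL. In DMSO proximal blastemas the same ratio ran from 2.29 to 8.61 with a median of 4.18. The 5.35 was that of the member ranked 4, whose DMSO distal mean rested on 10.49 counts, with 1 of the 3 libraries at 0. No ratio is given for ranks 2, 11 and 13, whose DMSO distal means were at or under that floor. The highest proximal ratio was that of the member ranked 3, which stood at 0.575, 2.98 and 1.83 CPM in DMSO distal and at 1.79, 3.06 and 0.894 CPM in the 0.1 uM TAL libraries. It stood at 7.12, 6.1 and 8.73 CPM at 1 uM TAL and at 24.1, 9.76 and 12.5 CPM in DMSO proximal blastemas.

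AMEX60DD045832, ranked 11, was at 0.151, 0 and 0 CPM in DMSO distal libraries, and at 0.293, 0 and 0 CPM at 0.1 uM TAL. It was at 0.569, 0.458 and 0.852 CPM at 1 uM TAL and at 2.83, 2.35 and 3.72 CPM in DMSO proximal blastemas. Its DMSO distal level rested on 1.35 counts in 1 library, and its 3 DMSO proximal libraries were all above its 3 libraries at 1 uM TAL.

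At 0.1 uM TAL the group mean of these 13 members was above DMSO distal in 11 and below in 1, with a median difference of 0.16 on the log2(CPM + 0.5) scale, where the median of all genes was -0.06. The selection held each of the members' differences under 0.5. It also favoured genes with low DMSO distal values, since both high groups were compared with DMSO distal. Nothing about the lower dose is therefore read from this count or median. Over all genes, the group mean at 0.1 uM TAL was above DMSO distal in 9443 of 21835. The 3 libraries at 0.1 uM TAL lay wholly above those of DMSO distal in 1 of the 13, the member ranked 10, and in 2.13% of all genes. That member had 3.54, 3.46 and 2.21 CPM in DMSO distal, 3.78, 3.88 and 3.97 CPM at 0.1 uM TAL, 8.82, 10.4 and 8.6 CPM at 1 uM TAL and 5.21, 9.9 and 5.96 CPM in DMSO proximal libraries.

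For these 13 members, counts of how often a library was the lowest or highest of its group stand beside the share over all genes. DMSO distal replicate 1 was the lowest of its group in 8 of the 13 and in 63.8% of all genes. DMSO distal replicate 2 was the highest in 7 of the 13 and in 58.7% of all genes. Among the 0.1 uM TAL libraries, replicate 3 was lowest in 8 of the 13 and in 50.8% of all genes. DMSO proximal replicate 2 was lowest in 8 of the 13 and in 38.7% of all genes, and replicate 3 was highest in 6 of the 13 and in 24.1%. At 1 uM TAL, replicate 1 was highest in 4 of the 13 and in 62.2% of all genes. Replicate 3 at that dose was lowest in 7 of the 13 and in 45.7%. The DMSO distal counts were near the shares over all genes, and nothing about the members is read from the counts. The median SD of log2(CPM + 0.5) within a group was 0.361 in DMSO distal, 0.385 at 0.1 uM TAL, 0.245 at 1 uM TAL and 0.431 in DMSO proximal libraries for these members. Over all genes it was 0.384, 0.344, 0.272 and 0.360 in the same order, and the ranking on the gap favours members with little spread.

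The 33 members ranked 14 to 46 were set apart by where they were detected and not by a shift in level. Being at 0 in both low groups, each could pass the count filter only through the high groups, so each had to differ. They were above 0 in 3 of the 6 high libraries in 15 members, in 4 in 14 members and in 5 in 4 members. At 1 uM TAL, 5 members were above 0 in all 3 libraries, 24 in 2 and 4 in 1. In DMSO proximal blastemas, 1 was above 0 in all 3 libraries, 19 in 2 and 13 in 1.

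Of the 198 values of this class in the 6 high libraries, 121 were above 0, and 114 of those were at least 10 counts, of which the filter itself requires 3 per member. The counts above 0 ran from 2.99 to 250 with a median of 32.65. A library at 0 thus often stood beside one of the same group with at least 10 estimated counts. An estimated count need not be 1 read. For example, the members ranked 24 and 32 both had 46.5 and 45.67 counts in 1 uM TAL replicates 2 and 3. The member ranked 43 had 23.25 and 45.67 there. The number of reads behind such values is not given. The median SD on the log2(CPM + 0.5) scale was 1.60 at 1 uM TAL and 1.83 in DMSO proximal blastemas. How the estimated counts were divided among similar transcripts is not given per gene, so reads shared with near-identical copies cannot be told apart from reads of these genes.

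**Figure D3:**
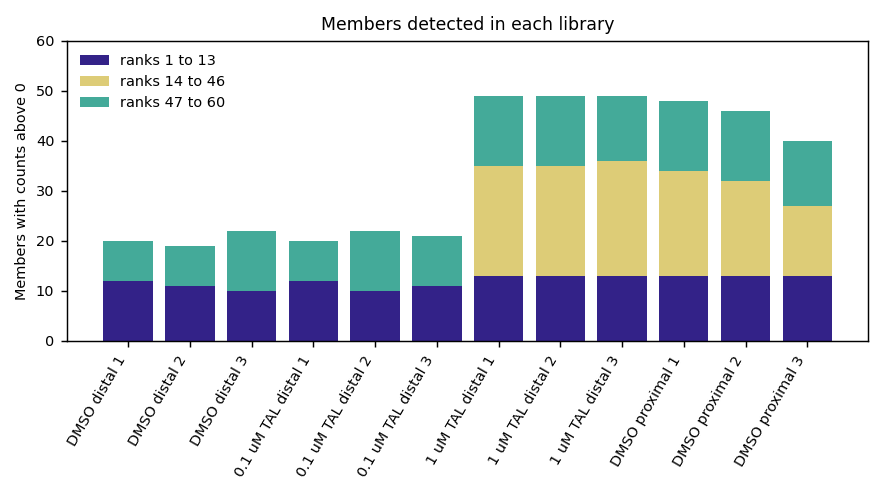
Number of members above 0 in each library, split by class. The 33 members ranked 14 to 46 contribute 22, 22 and 23 at 1 uM TAL, 21, 19 and 14 in DMSO proximal and 0 in the other 6 libraries.

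AMEX60DD044344, ranked 36, had the largest fitted log2 fold change of 1 uM TAL over DMSO distal among members. It was at 17.9, 0 and 9 CPM at 1 uM TAL, from 250, 0 and 108 counts, and at 5.78, 0 and 0 CPM in DMSO proximal blastemas. Its mean was at least 29.8-fold higher at 1 uM TAL and at least 6.4-fold higher in DMSO proximal than the floor in DMSO distal blastemas, and these means rest on 2 libraries and on 1.

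AMEX60DD032043, ranked 29, was among the 2 largest fitted changes in both contrasts. It was at 0, 8.69 and 13.5 CPM at 1 uM TAL and at 7.88, 0 and 9.23 CPM in DMSO proximal blastemas, with bounds of at least 24.6-fold and at least 18.9-fold. AMEX60DD029712, ranked 27, was at 0, 0 and 3.63 CPM at 1 uM TAL and at 0, 7.74 and 4.09 CPM in DMSO proximal blastemas. The member ranked 17 was more even, with 2.16, 2.02 and 2.16 CPM at 1 uM TAL and 2.69, 3.02 and 0 CPM in DMSO proximal blastemas. It was chosen as an example after its values were seen.

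Over the whole set, 36 members were at 0 in all 3 DMSO distal libraries. Against the floor their means at 1 uM TAL were at least 2.01-fold to at least 29.8-fold higher, with a median bound of 5.83. In DMSO proximal blastemas they were at least 2.33-fold to at least 18.9-fold higher, with a median bound of 6.36. These bounds too assume that 1 estimated count is 1 read, which the repeated values in ranks 14 to 46 put in doubt. Of the members, 34 were at 0 in all 6 DMSO distal and 0.1 uM TAL libraries, as were 90 of the 21835 genes, or 0.412%. The reverse, 0 in all 6 DMSO proximal and 1 uM TAL libraries, held for 74 genes, or 0.339%.

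The number of members above 0 was 49 in each 1 uM TAL library and 48, 46 and 40 in the DMSO proximal libraries, against 19 to 22 in the DMSO distal and 20 to 22 in those at 0.1 uM TAL. Of all 21835 genes, 89.3 to 93.5% were above 0 in each library. The selection favoured members with such a contrast, so nothing is read from it. Depth was also highest at 1 uM TAL. With all libraries thinned to the smallest total, 49 of the 60 members still met the thresholds and the count filter. Of these, 28 were in ranks 14 to 46 and 9 in ranks 1 to 13. The thinning treated each estimated count as 1 read, so it does not show how many members would stay at a lower read depth.

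In the 14 members ranked 47 to 60 the groups overlapped. The 3 DMSO proximal libraries were all above the 3 DMSO distal ones in 6 of them, against 5.46% of all genes, and the 3 at 1 uM TAL were all above DMSO distal in 5, against 8.63% of all genes. Both contrasts were part of the selection, so nothing is read from these counts. The first of the class, ranked 47 and picked after its values were seen, stood at 2.08, 1.87 and 1.86 CPM in DMSO distal, 2.39, 1.86 and 1.6 CPM at 0.1 uM TAL, 7.52, 5.25 and 3.67 CPM at 1 uM TAL and 7.6, 4.99 and 2.35 CPM in DMSO proximal libraries. In it, 1 library at 0.1 uM TAL just exceeded DMSO proximal replicate 3. The member ranked 60, just inside the set, had a gap of -1.31 and stood at 1.35, 55.1 and 57.1 CPM in DMSO distal, 34.6, 48.6 and 6.72 CPM at 0.1 uM TAL, 51.9, 52.9 and 40.3 CPM at 1 uM TAL and 22.7, 58.4 and 67.3 CPM in DMSO proximal libraries. Its low DMSO distal mean rested on replicate 1, as the other 2 DMSO distal libraries exceeded all 3 at 1 uM TAL. The gene ranked 61, just outside, had a gap of -1.37 and stood at 4.28, 0 and 6.13 CPM in DMSO distal, 0, 3.24 and 7.51 CPM at 0.1 uM TAL, 10.6, 5.39 and 6.93 CPM at 1 uM TAL and 11.4, 2.59 and 8.02 CPM in DMSO proximal libraries. In both genes, libraries of the low groups reached into the range of the high ones.

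The difference between 1 uM TAL and DMSO proximal blastemas was the 1 contrast that the selection did not set directly, although both groups were chosen to be high. On the log2(CPM + 0.5) scale the members' median difference was 0.12, close to the 0.14 of all genes. It ran from -1.96 to 1.93, and 34 members were higher at 1 uM TAL and 26 lower. Of the 21835 genes, 13853 were higher at 1 uM TAL. The members' difference was within 1 in 50 of the 60, at least 1 higher at 1 uM TAL in 5 and at least 1 lower in 5. Among all genes, 87.2% were within 1, 9.05% at least 1 higher and 3.72% at least 1 lower. The median was -0.22 in ranks 1 to 13, 0.34 in ranks 14 to 46 and -0.11 in ranks 47 to 60. In the edgeR fit the medians were -0.30, 0.04 and -0.08, and 17 of the 32 members tested in ranks 14 to 46 were higher at 1 uM TAL, against 23 of 33 on the log2(CPM + 0.5) scale.

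The edgeR quasi-likelihood F test, with Benjamini-Hochberg adjustment over all 41884 genes tested, called 0 of the 58 members tested in that contrast, and it called 0 genes in all (0%). For edgeR and DESeq2, all genes means those 41884, from which AMEX60DDU identifiers were not excluded. It is thus a different set from the 21835 genes used on the log2(CPM + 0.5) scale. None of the members reached an unadjusted p under 0.05 in this fit of all 12 libraries, while 6.76% of all genes did, and the members' lowest adjusted p was 0.686. With only the 6 libraries compared, 6 of the 59 members tested had an unadjusted edgeR p under 0.05. In DESeq2, 4 of 58 did. The count thus depended on the fit, and it is not read as members differing less than other genes. DESeq2 called 535 genes, or 1.46% of those to which it gave an adjusted p, among them 1 member, AMEX60DD045832, which was lower at 1 uM TAL (log2 fold change -2.37, adjusted p = 0.0194), with its 3 libraries at 1 uM TAL all below the 3 DMSO proximal ones. Its fitted log2 fold change in edgeR was -2.27 (SE 1.32, adjusted p = 0.692). In this contrast, 10 of the 58 members got no adjusted p from DESeq2 and could not be called. The median fitted log2 fold change was -0.11 over the members and -0.03 over all 41884 genes tested, with 25 members higher and 33 lower. Fitted with column totals in place of TMM factors, the members' median was -0.02, so its sign differed between the fit and the mean of log2(CPM + 0.5) under the same scaling. A p above the threshold is no evidence of equal levels.

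**Figure D4:**
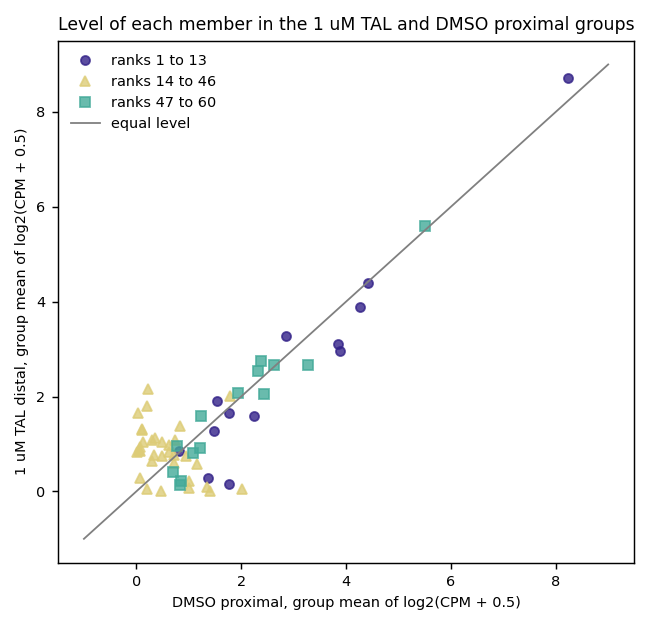
Group mean of log2(CPM + 0.5) at 1 uM TAL (vertical axis) and in DMSO proximal blastemas (horizontal axis) for each of the 60 members, with a symbol per class and a grey line at equal levels. Members of ranks 1 to 13 lie below the line in 9 of 13 cases and those of ranks 14 to 46 above it in 23 of 33. Of all 21835 genes, 13853 were higher at 1 uM TAL.

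By whole libraries, all 3 at 1 uM TAL were above all 3 of DMSO proximal blastemas in 2 members, or 3.33%, ranked 7 and 9, against 14% of all genes. All 3 were below in 5 members, or 8.33%, ranked 2, 3, 6, 8 and 11, against 3.84% of all genes. All 7 were in ranks 1 to 13, that is 2 of these 13 above and 5 below. Ranks 14 to 46 could rarely separate. Of these 33 members, 5 were above 0 in all 3 libraries at 1 uM TAL and 1 in all 3 of DMSO proximal blastemas. The shares of the 60 members are therefore not comparable with those of all genes. The member ranked 8, for example, stood at 9.71, 8.23 and 6.61 CPM at 1 uM TAL and at 12.2, 14.2 and 15.4 CPM in DMSO proximal blastemas, with 1.19, 4.85 and 2.84 CPM in DMSO distal ones. The member ranked 7 went the other way, with 3.02, 4.05 and 2.83 CPM at 1 uM TAL and 2.29, 2.28 and 2.69 CPM in DMSO proximal blastemas.

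The members with the largest fitted differences in that contrast had wide errors. AMEX60DD028691, ranked 26, was at 9.87, 7.71 and 0 CPM at 1 uM TAL and at 1.68, 0.919 and 0 CPM in DMSO proximal blastemas, with a fitted log2 change of 2.64 (edgeR, SE 2.14, adjusted p = 0.873). AMEX60DD044344 had 2.22 on the same scale (edgeR, SE 2.59, adjusted p = 0.979). On the other side, AMEX60DD045079, ranked 38, was at 1.44, 0.684 and 0 CPM at 1 uM TAL and at 0, 6.07 and 1.99 CPM in DMSO proximal blastemas, with a fitted log2 change of -2.11 (edgeR, SE 2.16, adjusted p = 0.958). The fitted log2 change was -0.49 for AMEX60DD001828 (edgeR, SE 0.35, adjusted p = 0.785) and 0.44 for AMEX60DD015718 (edgeR, SE 0.28, adjusted p = 0.712). None of these differences passed the threshold in edgeR. That of AMEX60DD044344 was 9.47 without DMSO proximal replicate 1, its only library above 0 in that group, a fitted value against a group then at 0 that is no bound, and 1.32 without 1 uM TAL replicate 1. That of AMEX60DD045079 was -0.69 without DMSO proximal replicate 2 and -3.05 without 1 uM TAL replicate 1.

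In the contrasts that the selection used, the edgeR test called none of the 58 members tested, and nothing about the members is read from these counts. DMSO proximal against DMSO distal gave 0 members of 5 genes called (0.0119% of 41884), 1 uM TAL against DMSO distal 0 of 10 (0.0239%), and 0.1 uM TAL against DMSO distal 0 of 0 (0%). 1 uM against 0.1 uM TAL gave 0 of 5 (0.0119%), and 0.1 uM TAL against DMSO proximal 0 of 6 (0.0143%). At an unadjusted p under 0.05 the edgeR counts of members were 25, 25, 0, 24 and 23 in that order, against 6.35, 4.79, 3.23, 6.04 and 3.42% of all genes. DESeq2 called 12, 12, 0, 7 and 11 members, and over all genes 535, 484, 155, 434 and 277, which is 1.52, 1.19, 0.381, 1.21 and 0.68% of those to which it gave an adjusted p. Of the 58 members tested, 14, 1, 1, 12 and 1 got no adjusted p from DESeq2 and could not be called. These comparisons share the DMSO distal, DMSO proximal or TAL libraries with one another and are not independent.

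The spread between libraries differed by class in the fit as well. The median biological coefficient of variation, which is the relative spread between replicates that edgeR estimates, was 0.411 in ranks 1 to 13, 1.96 in ranks 14 to 46 and 0.886 in ranks 47 to 60. Over all genes tested it was 0.680. The classes were cut on the levels in these same libraries, so nothing is read from this order.

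In repeats that left out 1 library at a time, the thresholds and the count filter were both applied again. A member with at least 10 counts in only 3 libraries fails that filter without any of them, whatever its remaining levels. Members of ranks 14 to 46 can drop out only without a library of the high groups. The counts below therefore do not by themselves measure how far a difference rests on 1 library. Of the 60 members, 12 met the 3 thresholds and the count filter in all 12 of these repeats. They were 4 of ranks 1 to 13, 8 of ranks 14 to 46 and 0 of ranks 47 to 60. The 4 were ranked 2, 4, 6 and 13. AMEX60DD001828 missed the thresholds without 0.1 uM TAL replicate 3, without DMSO distal replicate 2 and without DMSO distal replicate 3. Between 41 and 56 members met the thresholds and the filter when 1 library was left out. The fewest did so without 1 uM TAL replicate 3 and the most without 0.1 uM TAL replicate 1.

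**Figure D5:**
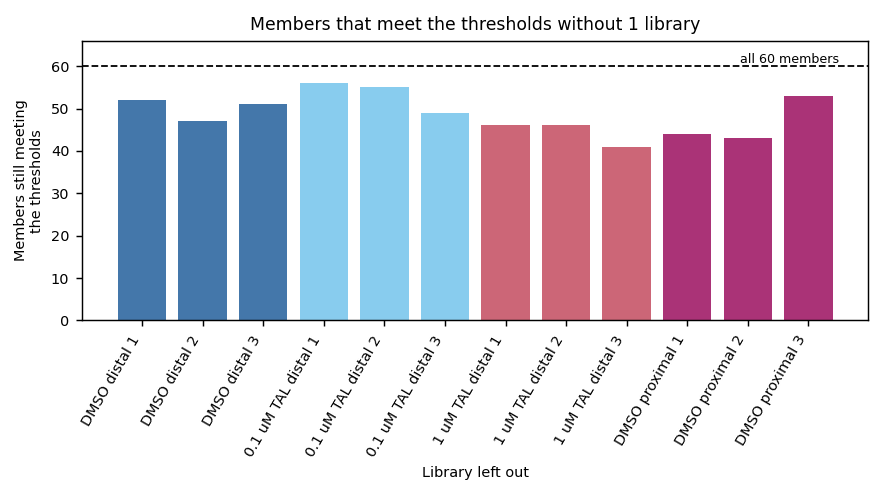
Number of the 60 members that still met the thresholds and the count filter (vertical axis) when the library named on the horizontal axis was left out. Bars are coloured by group, with a dashed line at 60. The bars run from 41 without 1 uM TAL replicate 3 to 56 without 0.1 uM TAL replicate 1.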

How the data were processed

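RNA of 12 libraries in 4 groups of 3, assigned from the sample titles, was sequenced. The values deposited by the authors are estimated counts per gene, 1 column per library. Trimmomatic 0.38 and Salmon 0.13.1 are named in the submitters' processing notes, and the index and annotation are not given in the sources used here. Of the values above 0, 98.8 to 99.1% were not whole. The table held 3 further columns of per-sample values that matched no label and were not used.

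Members were found on log2(CPM + 0.5) with library totals. The members, lists and tests were chosen with earlier results of these data known. Estimated counts were rounded, filtered with filterByExpr, scaled with TMM factors and tested with edgeR 4.0.16 (quasi-likelihood F test, 1 fit of all 12 libraries, Benjamini-Hochberg adjustment over all genes, called at an adjusted p under 0.05) in R 4.3.3. The SE of a log2 fold change is its size divided by the square root of F. DESeq2 1.42.0, other scalings, pseudocounts and filters, a replicate block, thinning and leaving out libraries were alternatives. The scripts were tested on simulated data. There edgeR recovered 48% of the 4-fold and 84% of the 16-fold changes planted between DMSO proximal and DMSO distal libraries. Those changes were planted only in better-counted genes with a spread below the median, so recovery among low or variable members was not measured.

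None of the 99081 identifiers matched the RefSeq gene list of assembly UKY_AmexF1_1, so the lists of retinoic acid, limb identity and cell type genes could not be applied, and no sequence or position is printed. Identifiers were printed for the 2 members with the largest gap, the 2 with the largest fitted change in 1 uM TAL and in DMSO proximal against DMSO distal, the 2 highest and 2 lowest in 1 uM TAL against DMSO proximal, and the member with the highest mean CPM. Other members go by rank, and the 60th and 61st gene by value. The members ranked 3, 7, 8, 10, 17, 24, 32, 43 and 47 were picked as examples after their values were seen.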

Additional observations from a re-analysis of the deposited data

How the results depend on the processing

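Membership moved most with the pseudocount. Of the 60 members, 31 stayed among the first 60 with a pseudocount of 0.25, where 146 genes met the thresholds, and 25 with a pseudocount of 1, where 36 genes met them. At 0.25, 55 members still met the thresholds, so most of those that left fell below the cut at 60. Genes with equal gaps are ordered by identifier, which decided which members with a gap of 0 stayed there. At a pseudocount of 1, 25 members met the thresholds. With AMEX60DDU identifiers allowed, 194 genes met the thresholds and 46 members stayed, although all 60 still met the thresholds. Under the other scalings, filters, ranking and thinning, 44 to 53 members stayed. Without 1 library, 34 to 46 members stayed and 71 to 120 genes met the thresholds and the count filter. The fewest members and the most genes came without DMSO proximal replicate 3, where 53 members still met the thresholds and the count filter. The causes were not tested.

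In edgeR, the count of called members was 0 in all 6 comparisons with DESeq2 size factors, without the filter and with only the 6 libraries compared. The fits of 6 libraries tested 59 members in 1 uM TAL against DMSO proximal but only 14 to 24 in the other comparisons. Most members were thus not tested in those. Without 1 library the count of called members was 0 to 1 for DMSO proximal against DMSO distal, the 1 being AMEX60DD001828 without 0.1 uM TAL replicate 3 (log2 fold change 2.84, adjusted p = 0.0455), and 0 elsewhere. DESeq2 called 12 members (of 535 genes called) in DMSO proximal and 12 (of 484) in 1 uM TAL against DMSO distal, 7 (of 434) in 1 uM against 0.1 uM TAL, 11 (of 277) in 0.1 uM TAL against DMSO proximal and 1 (of 535) in 1 uM TAL against DMSO proximal. The members' median log2 fold change in that last contrast was -0.20 with DESeq2 size factors, -0.02 with column totals, 0.14 with the replicate block and -0.32 to 0.08 without 1 library. That of AMEX60DD044344 ran from 1.32 to 9.47 and that of AMEX60DD029712 from -8.44 to -0.75, with 9.47 and -8.44 fitted against a group then at 0, and that of AMEX60DD045079 from -3.05 to -0.69. That of AMEX60DD032043 ran from -0.39 to 1.03, and was negative without 1 uM TAL replicate 3 (-0.39) or DMSO proximal replicate 2 (-0.18).

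Same-numbered libraries did not deviate together (mean r -0.00448 over 18 pairs, 4 of 12 libraries correlating best with their own number), and with the replicate block 0 members were called in all 6 comparisons. A library with no read of a gene still allows up to 3 counts.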
